A study of Mus musculus with 8 samples.

Results

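The matrix metalloproteinases (Mmp genes), the ADAMTS proteases (Adamts genes) and their tissue inhibitors (Timp genes) were followed in uterine stromal RNA. Members were all gene symbols that consist of Mmp with a number, Adamts with a number, or Timp1 to Timp4, which left out the ADAMTS-like genes. This gave 46 of the 23238 symbols counted: 23 Mmp, 19 Adamts and 4 Timp genes. The libraries came from ovariectomized C57BL/6-ICR mice, in 4 groups of 2 libraries. Control mice carried floxed Atg7 (Atg7f/f) and received oil or estradiol (E2), and Atg7d/d mice, in which Cre driven by the Amhr2 promoter deleted Atg7, an autophagy gene, received the same. All 4 groups thus lacked ovaries, and Amhr2-Cre acts in the mesenchyme of the uterus. The labels describe no mice with Cre and intact Atg7, and do not give the estradiol dose, the time after injection or how stroma was separated. They also do not say whether the libraries of a group came from different animals, and a p-value here reflects spread between libraries that may be technical.

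Matrix metalloproteinases are zinc enzymes that cut collagens, proteoglycans and other proteins outside the cell, and most are made as inactive precursors. ADAMTS proteases are secreted relatives, of which some trim the ends of procollagen and others cut large proteoglycans such as versican and aggrecan. TIMPs bind the active site of matrix metalloproteinases. TIMP3 differs from its relatives in that it stays bound to the matrix and also inhibits several ADAM and ADAMTS proteases. In the uterus these genes are known for the remodelling of stromal matrix during the cycle, implantation and involution.

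Libraries held 5458390 to 6951080 counts, and the 46 members took 0.301% to 0.538% of them. Each transcript is read near its 3′ end, and levels are therefore given as CPM (read counts brought to a common library size with TMM factors, the trimmed mean of M-values) with no length correction, and levels of different genes can be set side by side. Atg7 itself had 20 to 33 reads in each of the 8 libraries, and its difference between genotypes did not pass the test (log2 difference -0.09 ± 0.42 SE in oil and 0.28 ± 0.44 after estradiol). Reads from the 3′ end need not see a deletion inside the gene, so this does not check the labels. Markers of other cell types were present. The 14 epithelial markers summed to 4768 to 18110 CPM in oil and 1326 to 2963 CPM after estradiol, and the 12 fibroblast markers to 2147 to 3184 CPM and 6171 to 8918 CPM. The 9 smooth muscle markers summed to 1601 to 4029 CPM in oil and 6225 to 7164 CPM after estradiol, the 10 endothelial markers to 1410 to 2269 CPM over all libraries and the 11 macrophage markers to 117 to 255 CPM. Mesothelial markers were near 0 apart from Wt1, which gave 85.1 to 210 CPM, while the other 4 summed to 0.419 to 1.58 CPM. Among granulocyte markers Ltf, the lactoferrin gene, which uterine epithelium also expresses, gave 3.36 to 20.7 CPM in oil and 61.2 to 188 CPM after estradiol. The other 9 summed to 5.36 to 12 CPM and 5.99 to 33.5 CPM, ranges that overlap, with Elane at 0 in every library. The 11 lymphocyte and NK cell markers summed to 0.615 to 5.20 CPM. Levels varied widely within each list: among fibroblast markers Dcn stood at 707 to 1526 CPM, Hoxa11 at 52.2 to 210 CPM and Pdgfra at 25 to 95.5 CPM, and among epithelial markers Cldn4 at 304 to 6414 CPM, Epcam at 88.9 to 435 CPM and Elf3 at 15.8 to 35.5 CPM. Single markers did not all follow the sum of their list. With estradiol, 2 of 14 epithelial markers in control and 3 in Atg7-deleted stroma had a log2 change above 0. Of 12 fibroblast markers, 11 did in each genotype, and Col1a1, Col1a2 and Col3a1 supplied most of the sum after estradiol. In such bulk RNA, fewer cells of a type and less RNA per cell cannot be told apart.

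A few genes supplied most of the members' reads. Timp3, Adamts1 and Timp2 were the 3 highest members by mean level, and Mmp14 and Adamts2 followed. Of the 46 members, 28 passed the filter on low counts (10 Mmp, 15 Adamts and 3 Timp genes). The other 18 comprised 13 Mmp genes, 4 Adamts genes and Timp4. Among those 18, 13 had between 1 and 36 reads over all 8 libraries, from Mmp24 with 1 read to Mmp12 with 36. The remaining 5 (Mmp1a, Mmp1b, Mmp20, Mmp21 and Mmp27) had none in any library, which allows up to 0.0598 CPM over the pooled libraries if 3 reads are taken as the limit of a count of 0. Such limits, and the counting intervals given below, reflect counting error only.

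**Figure D1:**
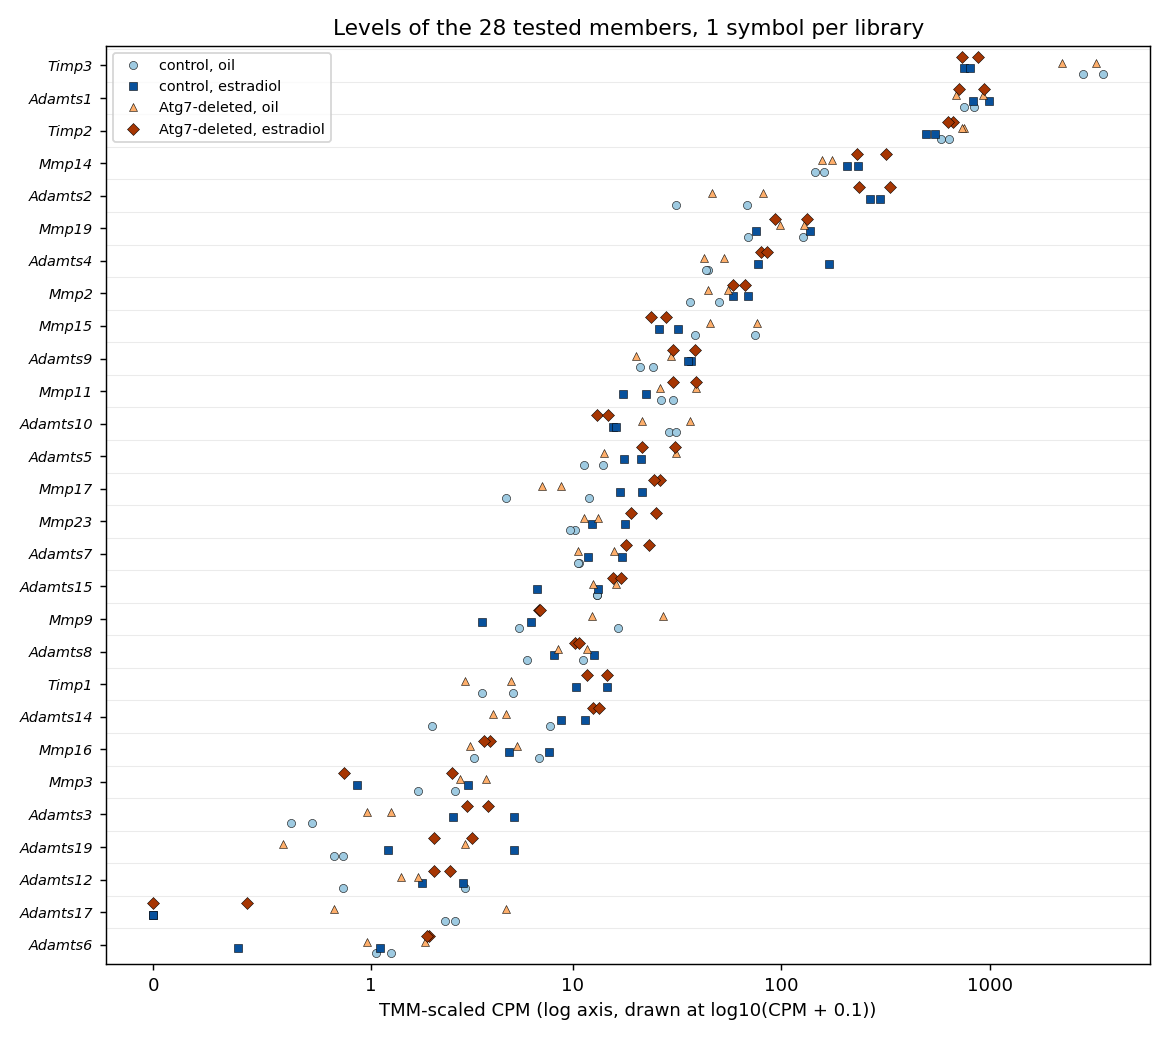
Levels of the 28 tested members in each of the 8 libraries. The x axis is TMM-scaled CPM on a log axis, and each symbol is 1 library, with colour and shape for the group. Timp3 in oil, between 2190 and 3450 CPM, lies above every other member, and Adamts17 lies at 0 in both control estradiol libraries.

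The first question was how the family responded to estradiol in stroma with intact Atg7. Timp1, the procollagen-trimming Adamts2 and Adamts3, the proteoglycan-cutting Adamts4 and the membrane-anchored Mmp17 rose, and Timp3, Adamts10 and Adamts17 fell. This made 8 of the 28 tested members, 28.6%, against 29.8% of all 13347 genes tested (edgeR quasi-likelihood test, Benjamini-Hochberg adjusted p below 0.05), so the share of members called lay near the background. The 5 that rose compare with 15.8% of all genes rising, and the 3 that fell with 14% falling. The median log2 change over the 28 tested members was 0.31, beside 0.01 over all genes tested. In Atg7-deleted stroma 8 of 28 members were again called, beside a background of 24.3%. Timp1, Adamts2, Mmp14 and Mmp17 rose (background 13.1%), Timp3, Adamts10, Adamts17 and Mmp15 fell (background 11.2%), and the median was 0.27 beside 0.02. For 9 of the 28 members (32.1%, beside 24.3% of all genes) all 4 estradiol libraries lay above all 4 oil libraries. For 4 members (14.3%, beside 21.5%) they all lay below. Such separation, given below for single members, was thus common among all genes. Cell type markers moved with estradiol too. Of 14 tested epithelial markers 8 fell in control and 4 in deleted stroma and none rose, while of 12 fibroblast markers 7 rose in each genotype and 1 fell in control, and of 9 smooth muscle markers 5 and 4 rose and 1 fell in deleted stroma; their part in the member calls was not tested. The number of calls depended on single libraries, among the members and among all genes alike. In control stroma it was 3 members and 1505 genes without control estradiol library 1 and 4 members and 1928 genes without control estradiol library 2, beside 8 and 3978. In deleted stroma it was 1 member and 740 genes without deleted estradiol library 1, 3 and 1065 without deleted estradiol library 2, 3 and 1289 without deleted oil library 1, and 5 and 1634 without deleted oil library 2, beside 8 and 3242.

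**Figure D2:**
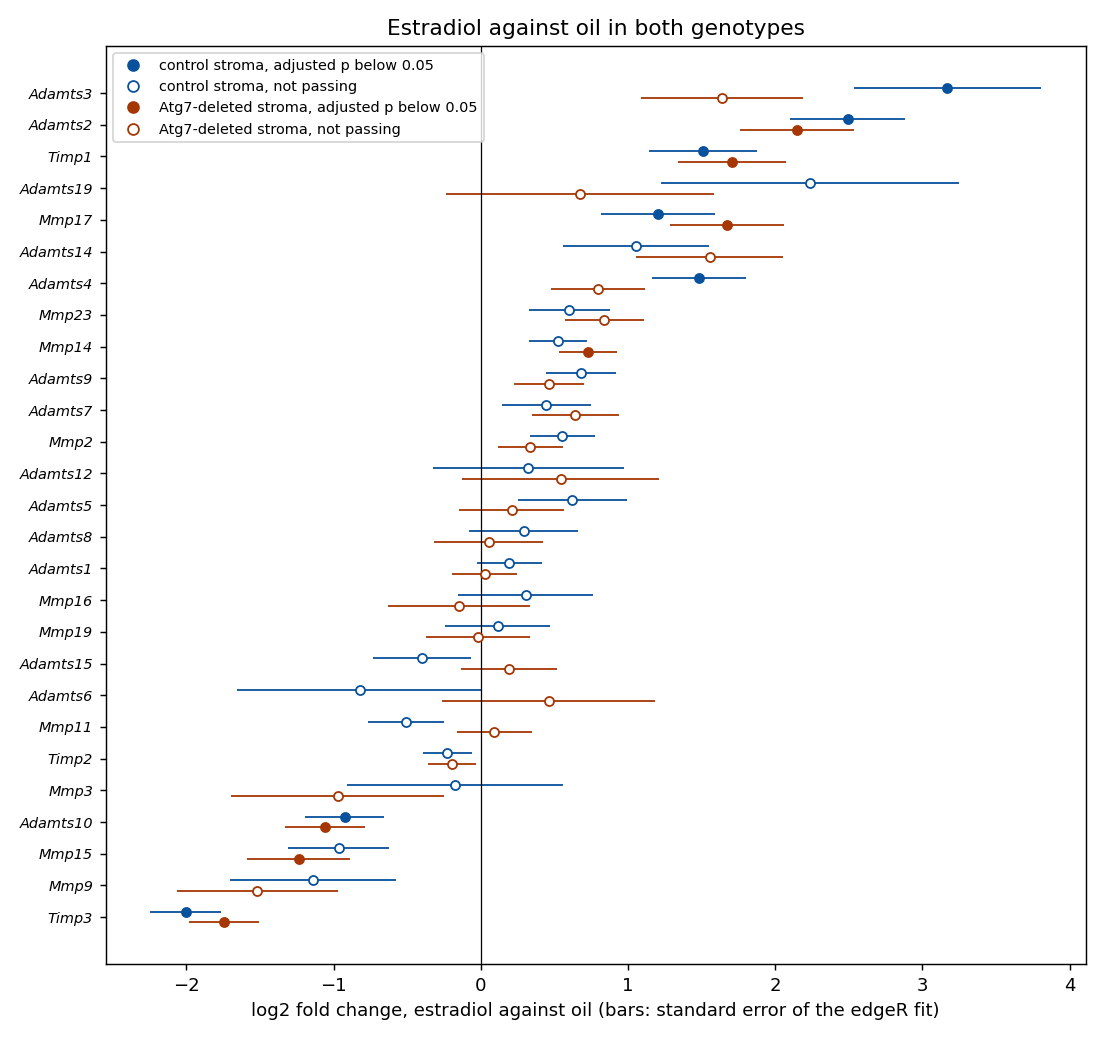
Estradiol against oil for 27 of the 28 tested members, with Adamts17 left out because it had 0 or 1 read per estradiol library. The x axis is the log2 fold change in CPM, bars are the standard error of the edgeR fit, blue is control and red is Atg7-deleted stroma, and filled points have an adjusted p below 0.05. In control stroma Adamts3 and Adamts2 lie farthest to the right, and Timp3 lies farthest to the left in both genotypes.

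Among the inhibitors, Timp3 made up the largest share of the members' reads in oil and fell with estradiol in both genotypes. Timp3 stood at 3450 and 2768 CPM in oil and 747 and 802 CPM after estradiol in the control libraries, and 3178 and 2190 CPM in oil and 867 and 735 CPM after estradiol in the deleted libraries. All 4 oil libraries were above all 4 estradiol libraries, with no overlap. Group means were 3109 ± 482 and 774.5 ± 39.3 CPM in control and 2684 ± 698 and 801 ± 93.8 CPM in deleted stroma (SD, n = 2 libraries each). The fall was 4.01-fold in control (log2 change -2.01 ± 0.24 SE, edgeR adjusted p = 0.00110) and 3.35-fold in deleted stroma (-1.75 ± 0.24, edgeR adjusted p = 0.00243). These calls held with each of the 8 libraries left out in turn. In each genotype oil library 1 had more Timp3 than oil library 2, and the summed epithelial markers followed the same order, at 18110 and 6042 CPM in control and 11290 and 4768 CPM in deleted oil. With both oil libraries numbered 1 left out, the log2 changes of Timp3 were -1.86 in control and -1.46 in deleted stroma. The oil libraries that stayed held 6042 and 4768 CPM of epithelial markers, beside 1326 to 2963 CPM after estradiol. The difference in summed epithelial markers thus stayed in that fit, although single markers did not all share it. Cdh1, Epcam, Krt8, Krt18, Cldn3, Cldn4 and Spint1 were higher in those oil libraries than in every estradiol library. Krt7, Krt19, Cldn7, Elf3, Foxa2 and Wnt7a overlapped, and Muc1 was lower (13.8 and 20.8 CPM, beside 29.9 to 81.9 CPM after estradiol). The part of epithelial RNA in the result was not tested.

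Timp1, the secreted and most inducible inhibitor, moved in the opposite direction from a far lower level. It had 3.63 and 5.13 CPM in oil and 10.3 and 14.6 CPM after estradiol in the control libraries, and 3.0 and 5.04 CPM in oil and 11.7 and 14.6 CPM after estradiol in the deleted libraries. Every estradiol library was above every oil library. Timp1 rose 2.84-fold in control (log2 change 1.51 ± 0.36 SE, edgeR adjusted p = 0.0154) and 3.26-fold in deleted stroma (1.70 ± 0.37, edgeR adjusted p = 0.0120). In control the call was lost without oil library 1 (adjusted p = 0.05002) or estradiol library 2 (adjusted p = 0.0935), and in deleted stroma without oil library 1 (0.0780), estradiol library 1 (0.0559) or estradiol library 2 (0.0786, all edgeR adjusted p).

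Timp2, which besides inhibiting takes part in the activation of pro-MMP2 by MMP14, did not pass the test. Its levels were 633 and 582 CPM in oil and 545 and 493 CPM after estradiol in the control libraries, and 748 and 735 CPM in oil and 663 and 629 CPM after estradiol in the deleted libraries. The estradiol libraries lay below the oil libraries of the same genotype, with log2 changes of -0.23 ± 0.16 SE in control (edgeR adjusted p = 0.321) and -0.20 ± 0.16 in deleted stroma (edgeR adjusted p = 0.408). Timp4 had 8 reads over all 8 libraries and was not tested.

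The promoter windows of the pair that moved in opposite directions are shown because estradiol changed both genes. Timp3 lies at chr10:86300372-86349506 on the plus strand and Timp1 at chrX:20870166-20874735 on the plus strand (mm10, GENCODE M21). The sequences are the bases before the start in RefSeq (GRCm38.p6), cut so that no annotated transcript is printed, at chr10:86300162-86300371 for Timp3 and chrX:20869916-20870165 for Timp1. Both were searched on both strands for the AP-1 motif TGANTCA, the full palindromic estrogen response element and the GC box GGGCGG, and matches are in capitals; matches of different motifs were allowed to overlap.
Timp3: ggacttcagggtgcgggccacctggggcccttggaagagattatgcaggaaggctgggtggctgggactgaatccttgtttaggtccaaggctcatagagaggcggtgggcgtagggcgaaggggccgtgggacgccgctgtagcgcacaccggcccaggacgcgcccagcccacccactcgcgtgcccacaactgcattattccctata
Timp1: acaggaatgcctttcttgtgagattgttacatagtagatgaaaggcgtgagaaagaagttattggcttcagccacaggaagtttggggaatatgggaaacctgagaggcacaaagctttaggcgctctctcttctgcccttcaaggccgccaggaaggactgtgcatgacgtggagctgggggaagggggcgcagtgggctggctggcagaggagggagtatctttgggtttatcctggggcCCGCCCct
The Timp1 window held 1 GC box. The printed stretch of the Timp3 window held none of the 3 motifs, but its full 250 bases hold a GC box in the part not printed, so both genes count as holders. Of 32851 RefSeq windows of 250 bases, 32.7% held a GC box, 6.75% an AP-1 motif and 0.0639% the estrogen response element in full. The 32 members with a window in the table held a GC box in 16 cases, an AP-1 motif in 8 and the full estrogen response element in none. A match is a string of letters and not a bound site, and a missing match says only that those letters are not in that window.

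**Figure D3:**
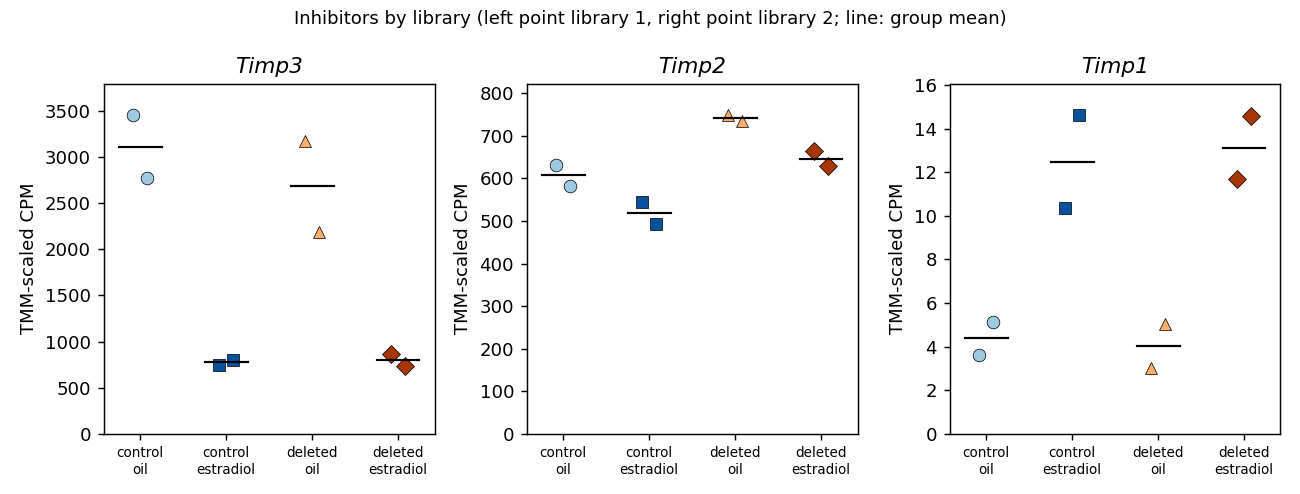
TMM-scaled CPM of Timp3, Timp2 and Timp1 in the 4 groups, with 1 point per library, a line at the group mean and a y axis from 0 in each panel. Timp3 is between 2190 and 3450 CPM in the oil libraries and between 735 and 867 CPM after estradiol, Timp1 is between 3.0 and 5.13 CPM and between 10.3 and 14.6 CPM, and both Timp2 points of the deleted groups are above those of the control group with the same treatment.

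The balance of inhibitor to protease transcripts shifted with Timp3. Summed over the family, TIMP transcripts stood at 4087 and 3356 CPM in oil and 1302 and 1310 CPM after estradiol in the control libraries, and 3929 and 2930 CPM in oil and 1542 and 1378 CPM after estradiol in the deleted libraries. Summed Mmp transcripts stayed between 369 and 639 CPM over the 8 libraries, and in control stroma their values in oil (467 and 369 CPM) and after estradiol (532 and 445 CPM) overlapped. In deleted stroma both estradiol libraries (639 and 508 CPM) were above both oil libraries (460 and 487 CPM). The ratio of summed TIMP to summed Mmp CPM was 6.01 to 9.09 in the 4 oil libraries and 2.41 to 2.95 in the 4 estradiol libraries. Timp3 alone supplied 50% to 62% of all member CPM in oil and 21.9% to 26.3% after estradiol. The ratio of Timp3 to Timp2 moved from 2.98 to 5.45 in oil to 1.17 to 1.63 after estradiol. These ratios describe transcripts and say nothing of protein or enzyme activity.

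**Figure D4:**
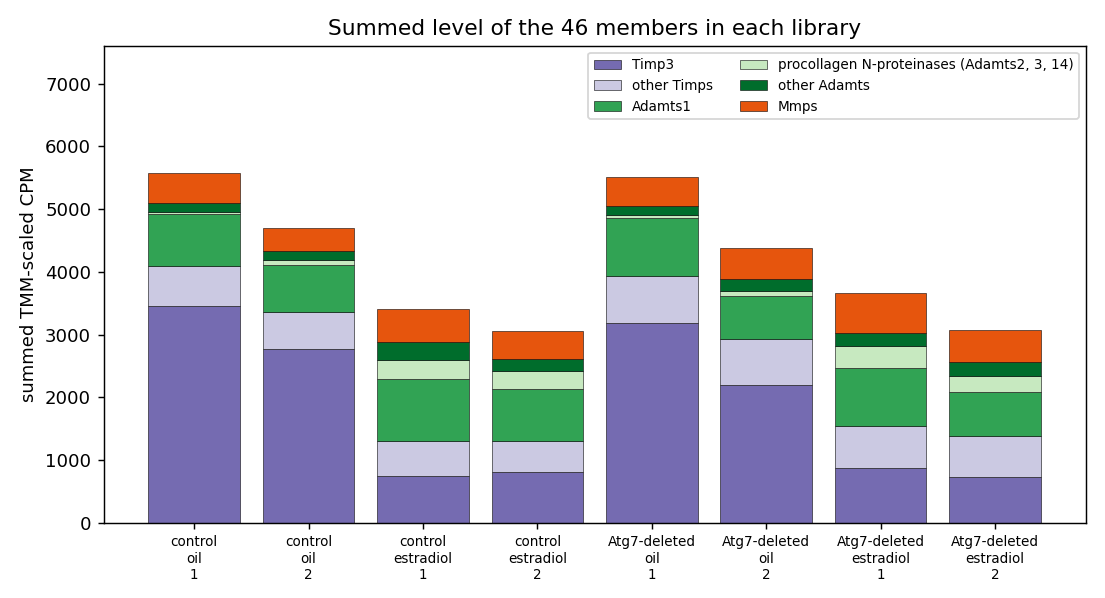
Summed TMM-scaled CPM of the 46 members in each library, stacked by gene group, with the y axis from 0. The Timp3 block takes 50% to 62% of each oil bar and 21.9% to 26.3% of each estradiol bar, while the block of Adamts2, Adamts3 and Adamts14 is thicker after estradiol.

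The procollagen N-proteinases Adamts2, Adamts3 and Adamts14, which remove the amino-terminal propeptide of fibrillar procollagens, had median log2 changes with estradiol of 2.49 in control and 1.64 in deleted stroma, beside 0.01 and 0.02 over all genes tested. Of these 3 genes, Adamts2 and Adamts3 rose in control stroma, where 15.8% of all genes rose. Only Adamts2 rose in deleted stroma, where 13.1% of all genes did. Adamts2 stood at 31.2 and 68.5 CPM in oil and 295 and 265 CPM after estradiol in the control libraries, and 46.6 and 81.6 CPM in oil and 332 and 236 CPM after estradiol in the deleted libraries. The lowest estradiol library was thus well above the highest oil library. Adamts2 rose 5.62-fold in control (log2 change 2.49 ± 0.39 SE, edgeR adjusted p = 0.00284) and 4.43-fold in deleted stroma (2.15 ± 0.39, edgeR adjusted p = 0.00590), the latter not holding without deleted estradiol library 1 (1.88, edgeR adjusted p = 0.0562).

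Adamts3, which trims procollagen II and also processes the lymphatic growth factor VEGF-C, was scarce. It had 3 and 2 reads in oil and 37 and 17 reads after estradiol in the control libraries, and 8 and 6 reads in oil and 17 and 24 reads after estradiol in the deleted libraries, or 0.354 to 1.26 CPM in oil and 2.61 to 5.17 CPM after estradiol. The estradiol and oil libraries did not overlap in either genotype. The ratio of pooled levels was 9.47 in control (95% counting interval 3.82 to 30.3) and 3.16 in deleted stroma (1.69 to 6.28). The rise passed the test in control (log2 change 3.17 ± 0.64 SE, edgeR adjusted p = 0.00741), although not without estradiol library 1 (2.60, edgeR adjusted p = 0.0629), and did not pass in deleted stroma (1.64 ± 0.55, edgeR adjusted p = 0.0591; 0.0431 in a fit on the compared groups alone).

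Adamts14 gave 2.05 and 7.79 CPM in oil and 11.5 and 8.76 CPM after estradiol in the control libraries, and 4.74 and 4.10 CPM in oil and 12.6 and 13.4 CPM after estradiol in the deleted libraries. It did not pass the test in control (log2 change 1.05 ± 0.50 SE, edgeR adjusted p = 0.139) or in deleted stroma (1.55 ± 0.50, edgeR adjusted p = 0.0505). The control value depended on the spread of its 2 oil libraries: without control oil library 2 the change was 2.26 (edgeR adjusted p = 0.005004) and without control oil library 1 it was 0.41. The deleted change passed with DESeq2 (adjusted p = 0.0241) and without control oil library 1 or 2 (edgeR adjusted p = 0.00428 and 0.00461). Summed over the 3 genes, the procollagen N-proteinases stood at 33.8 to 86.7 CPM in oil and 253 to 348 CPM after estradiol. The summed fibroblast markers moved in the same direction, from 2147 to 3184 CPM in oil to 6171 to 8918 CPM after estradiol. Most of that sum after estradiol came from Col1a1, Col1a2 and Col3a1, with Col1a2 at 55.1 to 187 CPM in oil and 1685 to 2745 CPM after estradiol. Dcn went the other way, in control from 1251 and 1023 CPM in oil to 743 and 707 CPM after estradiol. Of the 12 markers, 11 had a log2 change above 0 in each genotype. The part of these markers in this result was not tested.

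The promoter windows of Adamts2 and Adamts3 are shown as the trimming enzymes that passed the test. Adamts2 lies at chr11:50602084-50807573 on the plus strand, with its window at chr11:50601835-50602083, and Adamts3 at chr5:89677087-89883334 on the minus strand, with its window at chr5:89883335-89883584. GC boxes are in capitals, on either strand.
Adamts2: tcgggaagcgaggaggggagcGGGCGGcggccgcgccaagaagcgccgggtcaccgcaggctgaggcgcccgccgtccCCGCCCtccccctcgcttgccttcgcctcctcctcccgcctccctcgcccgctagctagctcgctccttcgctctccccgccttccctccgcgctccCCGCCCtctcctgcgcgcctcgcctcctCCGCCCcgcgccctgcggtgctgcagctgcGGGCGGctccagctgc
Adamts3: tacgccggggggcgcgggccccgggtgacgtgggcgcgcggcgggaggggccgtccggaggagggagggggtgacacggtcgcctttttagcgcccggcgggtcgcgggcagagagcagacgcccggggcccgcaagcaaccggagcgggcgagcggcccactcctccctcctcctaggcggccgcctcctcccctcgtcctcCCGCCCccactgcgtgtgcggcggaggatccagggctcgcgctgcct
The Adamts2 window held 5 GC boxes and the Adamts3 window 1. Their GC contents of 77.9% and 78% compare with a median of 52.4% over all windows.

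The substrates of these enzymes were read from a list of ADAMTS substrates. Of the 8 tested, 6 rose and 2 fell in control stroma, where 15.8% of all genes rose and 14% fell. In deleted stroma 6 rose and 1 fell, beside 13.1% and 11.2% of all genes. The fibrillar collagen chains are cut by the procollagen N-proteinases, and Col1a1 stood at 39.6 to 61.3 CPM in oil and 1196 to 2036 CPM after estradiol. Versican (Vcan), the large proteoglycan cut by several ADAMTS, went from 10.3 to 18.1 CPM in oil to 66.4 to 131 CPM after estradiol (log2 change 2.81 ± 0.28 SE in control and 2.74 ± 0.27 in deleted stroma, edgeR adjusted p = 6.53e-04 and 8.41e-04). Fibronectin (Fn1) rose by log2 1.27 ± 0.16 SE and 1.70 ± 0.16 (edgeR adjusted p = 0.00128 and 7.67e-04). The members that fell, named after their values were seen, were Vwf in both genotypes and Comp in control (log2 change -3.43 ± 0.77 SE, edgeR adjusted p = 0.0113). In deleted stroma the Comp change of -1.69 ± 0.65 did not pass (edgeR adjusted p = 0.0865). The test of the difference between genotypes gave 1.74 ± 1.05 for Comp (edgeR adjusted p = 0.9999). Vwf, the blood clotting factor of endothelium that ADAMTS13 cuts, changed by log2 -2.43 ± 0.41 SE and -1.31 ± 0.39 (edgeR adjusted p = 0.00378 and 0.0381). Several of these collagen genes are also among the fibroblast markers.

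Of the proteoglycan-cutting ADAMTS, 6 of 7 were tested, and 1, Adamts4, rose in control stroma, where 15.8% of all genes rose. Adamts4, an aggrecanase that also cuts versican, had 44.8 and 43.6 CPM in oil and 169 and 77.8 CPM after estradiol in the control libraries, and 52.9 and 42.5 CPM in oil and 80.2 and 85.4 CPM after estradiol in the deleted libraries. All estradiol libraries were above all oil libraries, and control estradiol library 1 stood apart from the other 3. The rise was 2.79-fold in control (log2 change 1.48 ± 0.32 SE, edgeR adjusted p = 0.0100). It fell to 0.82 without control estradiol library 1 (edgeR adjusted p = 0.0595), beside 0.79 ± 0.32 in deleted stroma (edgeR adjusted p = 0.0971). The deleted change passed without control estradiol library 1 or 2 (edgeR adjusted p = 0.0283 and 0.0276), with no filter on low counts (0.0378) and in a fit on the compared groups alone (0.0110).

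The other proteoglycan-cutting ADAMTS did not pass the test. Adamts1, which is induced by progesterone in the ovary and cuts versican, was the most abundant protease of the family at 684 to 983 CPM in every library. Its log2 changes with estradiol were 0.19 ± 0.22 SE in control (edgeR adjusted p = 0.537) and 0.03 ± 0.22 in deleted stroma (edgeR adjusted p = 0.945). Adamts9 changed by 0.68 ± 0.24 and 0.46 ± 0.24, with all estradiol libraries above all oil libraries, and its control change passed without deleted oil library 1 or 2 (edgeR adjusted p = 0.0477 and 0.0478). Adamts5, the other main aggrecanase, ranged from 11.4 to 31.4 CPM.

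The remaining ADAMTS held both called genes of this family that fell. Of 4 tested, these 2 fell in each genotype, where 14% (control) and 11.2% (deleted) of all genes fell. Adamts10, a protease of fibrillin microfibrils, had 28.9 and 31.5 CPM in oil and 15.6 and 16.1 CPM after estradiol in the control libraries, and 21.5 and 36.6 CPM in oil and 13.1 and 14.7 CPM after estradiol in the deleted libraries. The oil libraries were all above the estradiol libraries. Adamts10 fell 1.90-fold in control (log2 change -0.92 ± 0.27 SE, edgeR adjusted p = 0.0301) and 2.08-fold in deleted stroma (-1.06 ± 0.27, edgeR adjusted p = 0.0227). In control the call was lost without control oil library 2 (adjusted p = 0.0504), control estradiol library 1 (0.139) or 2 (0.114), or deleted estradiol library 1 (0.0567) or 2 (0.0570), and with library totals as scaling (0.0532). In deleted stroma it was lost without deleted oil library 2 (0.153, log2 change -0.62) or deleted estradiol library 1 (0.150) or 2 (0.0997), all edgeR adjusted p.

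Adamts17, a relative of Adamts10, was left with 1 read in the 4 estradiol libraries. It had 15 and 15 reads in oil and 0 and 0 reads after estradiol in the control libraries, and 30 and 4 reads in oil and 1 and 0 reads after estradiol in the deleted libraries. With 3 reads over the group as the limit of a count of 0, the level was at least 11.4-fold lower after estradiol in control (edgeR adjusted p = 0.0227). In deleted stroma the ratio of oil to estradiol was 31.5, with a counting interval of 5.28 to 1280 (edgeR adjusted p = 0.0439). The control call was lost without control estradiol library 1 (adjusted p = 0.103) or 2 (0.0875). The deleted call was lost without control estradiol library 1 (0.0532) or 2 (0.0535), deleted oil library 1 (0.306), or deleted estradiol library 1 (0.143) or 2 (0.206), and also without both oil libraries numbered 1 (0.295), all edgeR adjusted p. Adamts6, Adamts12 and Adamts19 were tested at levels from 0.154 to 5.17 CPM and did not pass.

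Of the 6 membrane-bound matrix metalloproteinases, 4 were tested, and 1 was called in control (29.8% of all genes) and 3 in deleted stroma (24.3% of all genes). Mmp14, the membrane enzyme that cuts fibrillar collagen and activates pro-MMP2, was the most abundant Mmp at 161 and 145 CPM in oil and 232 and 207 CPM after estradiol in the control libraries, and 174 and 156 CPM in oil and 318 and 230.2 CPM after estradiol in the deleted libraries. All 4 estradiol libraries were above all 4 oil libraries. The rise of 1.66-fold in deleted stroma passed (log2 change 0.73 ± 0.20 SE, edgeR adjusted p = 0.0276) and that in control did not (0.52 ± 0.20, edgeR adjusted p = 0.0728, or 0.0439 with library totals as scaling); the test of the difference gave 0.20 ± 0.28 (edgeR adjusted p = 0.9999). The deleted call was lost without deleted oil library 1 (adjusted p = 0.0858) or 2 (0.134), or deleted estradiol library 1 (0.216, log2 change 0.48), all edgeR adjusted p.

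Mmp15, which is anchored by a transmembrane segment like Mmp14, moved the other way. It had 74.8 and 38.6 CPM in oil and 26.1 and 32.0 CPM after estradiol in the control libraries, and 76.7 and 45.5 CPM in oil and 23.8 and 28 CPM after estradiol in the deleted libraries. Oil and estradiol libraries did not overlap, and oil library 1 was the higher of its pair in both genotypes, the order also seen for the summed epithelial markers. The fall was 2.36-fold in deleted stroma (log2 change -1.24 ± 0.35 SE, edgeR adjusted p = 0.0318) and did not pass in control (-0.97 ± 0.34, edgeR adjusted p = 0.0616, or 0.0321 with DESeq2). The deleted call was lost without control estradiol library 1 (adjusted p = 0.0510) or 2 (0.0510), deleted oil library 1 (0.191, log2 change -0.81), or deleted estradiol library 1 (0.187) or 2 (0.120), and the control value passed without control oil library 2 (0.00768), all edgeR adjusted p. With both oil libraries numbered 1 left out, the changes were -0.43 in control and -0.82 in deleted stroma, both smaller in size than with all libraries. The summed epithelial markers still stood higher in the oil libraries that stayed than after estradiol, although Muc1 stood lower and several others overlapped. The part of epithelial RNA was not tested.

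Mmp17, held to the membrane by a lipid anchor, had 4.73 and 12 CPM in oil and 16.9 and 21.5 CPM after estradiol in the control libraries, and 7.11 and 8.82 CPM in oil and 26.3 and 24.6 CPM after estradiol in the deleted libraries. Every estradiol library was above every oil library. It rose 2.30-fold in control (log2 change 1.2 ± 0.39 SE, edgeR adjusted p = 0.0436) and 3.19-fold in deleted stroma (1.67 ± 0.39, edgeR adjusted p = 0.0154). The control call was lost with any 1 of 7 libraries left out (edgeR adjusted p up to 0.177), the exception being control oil library 2 (log2 change 1.98, edgeR adjusted p = 0.00267); it was also lost with library totals as scaling (0.0517), in a fit on the compared groups alone (0.105) and without both oil libraries numbered 1 (0.113, log2 change 0.65). In deleted stroma it was lost without deleted oil library 1 (adjusted p = 0.0885) or 2 (0.0542), or deleted estradiol library 1 (0.0946) or 2 (0.0716), all edgeR adjusted p. Mmp16 was tested at 3.16 to 7.68 CPM and did not pass, and Mmp24 and Mmp25 had too few reads to test.

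Neither gelatinase, the enzymes that cut denatured collagen and collagen IV, passed the test. Mmp2, a stromal gelatinase, went from 36.5 to 55.5 CPM in oil to 58.7 to 69.0 CPM after estradiol (log2 change 0.55 ± 0.22 SE in control and 0.34 ± 0.22 in deleted stroma, edgeR adjusted p = 0.0870 and 0.290). Mmp9, a gelatinase that granulocytes and macrophages also carry, gave 5.52 to 27.3 CPM in oil and 3.63 to 6.96 CPM after estradiol (-1.14 ± 0.57 and -1.52 ± 0.55, edgeR adjusted p = 0.157 and 0.0726). The Mmp9 change passed in deleted stroma with DESeq2 (adjusted p = 0.0253) and without control oil library 1 or 2 (edgeR adjusted p = 0.0159 and 0.0172), and in control without oil library 1 (-1.71, edgeR adjusted p = 0.0259); the Mmp2 change passed in control without oil library 1 (0.84, edgeR adjusted p = 0.0301). Apart from Ltf, the granulocyte markers summed to 5.36 to 12 CPM in oil and 5.99 to 33.5 CPM after estradiol. Over the whole list, which includes Ltf, 1 of 6 tested markers rose in each genotype, beside 15.8% and 13.1% of all genes. Of the stromelysins, Mmp11 ranged from 17.4 to 39.2 CPM and Mmp3 from 0.720 to 3.79 CPM, and neither passed. Mmp19 at 69.4 to 137 CPM and Mmp23 at 9.74 to 25 CPM did not pass either, though Mmp23 did in deleted stroma without control oil library 1 or 2 (edgeR adjusted p = 0.0403 and 0.0402). Reads of Mmp19 cannot be told apart from those of Tmem198b, nor reads of Adamts7 from those of Tbc1d2b, if counting ignored strand, because the genes overlap on opposite strands at their 3′ ends; the same holds for Timp3 and Syn3, but Syn3 had 40 reads in all.

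The collagenases, stromelysins 1 and 2, matrilysin and macrophage elastase lie side by side in the genome and were almost silent. The cluster spans 427.1 kb at chr9:7272514-7699585 and holds 10 of the 23 Mmp genes: Mmp13, Mmp12, Mmp1b, Mmp3, Mmp1a, Mmp10, Mmp8, Mmp27, Mmp20 and Mmp7. Together they had 211 reads over the 8 libraries, 17 to 43 per library, which is 0.863% of the 24444 Mmp reads. Of the 10, 1 (Mmp3) passed the filter on low counts and 4 had no read in any library, whereas 9 of the 13 Mmp genes elsewhere were tested. Reads were 36 for Mmp12, 27 for Mmp13, 20 for Mmp10, 10 for Mmp8 and 4 for Mmp7, and all 4 of Mmp7 lay in control oil library 1. The rodent collagenase genes Mmp1a and Mmp1b and the neutrophil and bone collagenases Mmp8 and Mmp13 thus gave no testable signal in either treatment.

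Cluster promoters are printed because most of them share a motif that was not found in the other members' windows. The AP-1 motif TGANTCA occurred in 8 of the 10 cluster windows and in 0 of the 22 other member windows, against 6.75% of all windows. Windows of Mmp3 (chr9:7445572-7445821), Mmp10 (chr9:7502092-7502341) and Mmp13 (chr9:7272264-7272513), all on the plus strand, carry it in capitals 46, 63 and 35 bases before the RefSeq start.
Mmp3: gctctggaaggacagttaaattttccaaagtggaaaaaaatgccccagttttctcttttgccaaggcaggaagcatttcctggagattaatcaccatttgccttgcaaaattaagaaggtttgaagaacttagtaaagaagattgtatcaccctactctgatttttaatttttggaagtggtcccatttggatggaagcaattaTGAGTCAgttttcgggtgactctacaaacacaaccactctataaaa
Mmp10: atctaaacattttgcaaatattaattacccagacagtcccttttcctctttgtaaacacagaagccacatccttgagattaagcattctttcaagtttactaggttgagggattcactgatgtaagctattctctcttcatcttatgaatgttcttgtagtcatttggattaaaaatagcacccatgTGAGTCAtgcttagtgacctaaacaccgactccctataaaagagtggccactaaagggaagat
Mmp13: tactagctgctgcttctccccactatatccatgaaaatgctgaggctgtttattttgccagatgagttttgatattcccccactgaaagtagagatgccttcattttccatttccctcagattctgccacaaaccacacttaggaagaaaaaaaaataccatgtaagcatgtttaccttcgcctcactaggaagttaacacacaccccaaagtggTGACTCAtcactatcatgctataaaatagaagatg
Induction through AP-1 is textbook knowledge for several of these genes. The motif count is a description of sequence, and levels of 9 of the 10 genes were too low to compare.

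Genes that activate or restrain these proteases did not move as one group. Of 21 tested, 3 rose and 4 fell in control stroma (33.3% called, beside 29.8% of all genes; median log2 change -0.05), and 2 rose and 4 fell in deleted stroma (28.6%, beside 24.3%; median -0.42). Plaur, the receptor that focuses urokinase on the cell surface, fell by 1.38 ± 0.27 SE and 1.11 ± 0.28 on the log2 scale (edgeR adjusted p = 0.00694 and 0.0207). Plat, the tissue plasminogen activator, fell by 1.12 ± 0.30 and 1.19 ± 0.30 (edgeR adjusted p = 0.0227 and 0.0218). A2m, the broad protease trap alpha-2-macroglobulin, went from at most 0.316 CPM in oil to 1.84 to 7.28 CPM after estradiol (edgeR adjusted p = 0.00715 and 0.00735). Sdc4, a cell-surface proteoglycan, fell by 1.54 ± 0.42 in control (edgeR adjusted p = 0.0234). In deleted stroma its change of -1.15 ± 0.41 did not pass (edgeR adjusted p = 0.0714). Pcsk6, a convertase that activates precursors, fell by 1.15 ± 0.23 in deleted stroma (edgeR adjusted p = 0.00945). In control it changed by -0.19 ± 0.23 (edgeR adjusted p = 0.548). The test of the difference between genotypes gave 0.39 ± 0.58 for Sdc4 and -0.95 ± 0.32 for Pcsk6 (edgeR adjusted p = 0.9999 for both).

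Among relatives of the family outside the rule, the membrane ADAM proteases had 11 tested genes. In control 1 rose and 1 fell (18.2% called, beside 29.8% of all genes), and in deleted stroma 3 rose and 1 fell (36.4%, beside 24.3%). Adam12, a meltrin of mesenchymal cells, stood at 3.36 to 5.67 CPM in oil and 52.9 to 75.4 CPM after estradiol (log2 change 3.87 ± 0.25 SE and 3.68 ± 0.25, edgeR adjusted p = 1.57e-04 and 2.33e-04). Adam8 fell by 1.92 ± 0.30 and 1.23 ± 0.30 (edgeR adjusted p = 0.00278 and 0.0196). Adam17, the sheddase that TIMP3 inhibits, rose by 1.53 ± 0.40 in deleted stroma (edgeR adjusted p = 0.0235), and Adam23 by 2.57 ± 0.72 (edgeR adjusted p = 0.0310). In control their changes of 0.52 ± 0.39 and -0.04 ± 0.83 did not pass (edgeR adjusted p = 0.335 and 0.979). The test of the difference between genotypes gave 1.01 ± 0.55 and 2.61 ± 1.12 (edgeR adjusted p = 0.9999 for both). Among 4 tested ADAMTS-like genes, which have no protease domain, Adamtsl1 fell in control (-1.11 ± 0.31, edgeR adjusted p = 0.0261), where 14% of all genes fell. None was called in deleted stroma, where Adamtsl1 changed by -0.82 ± 0.31 (edgeR adjusted p = 0.0795). The test of the difference between genotypes gave 0.28 ± 0.43 for Adamtsl1 (edgeR adjusted p = 0.9999).

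The response to estradiol was set side by side between genotypes, which share no library in these contrasts. Of the 10 members called in either genotype, 6 were called in both (Timp1, Timp3, Adamts2, Adamts10, Adamts17 and Mmp17), Adamts3 and Adamts4 in control only, and Mmp14 and Mmp15 in deleted stroma only. The difference itself was tested as an interaction, and 0 of 28 members passed (background 0% of 13347 genes). At an unadjusted p below 0.05 in edgeR there were 0 members and 210 genes (1.57%). In DESeq2 0 members passed. For Adamts3 the difference was -1.53 ± 0.87 SE on the log2 scale, for Adamts4 -0.69 ± 0.45, for Mmp15 -0.27 ± 0.49 and for Timp3 0.26 ± 0.33 (95% interval -0.48 to 1.0), all with an edgeR adjusted p of 0.9999. The Adamts4 difference was -0.02 without control estradiol library 1. Signs agreed in 23 of the 28 members, beside 85.9% of all genes tested. Across the 28 members the log2 changes of the 2 genotypes correlated with r = 0.92 and rho = 0.89; genes are not independent replicates, and the value is a description.

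Deletion of Atg7 changed no member past the threshold. In oil, 0 of 28 members passed (background 0%). At an unadjusted p below 0.05 in edgeR there were 1 member, Adamts5, and 339 genes (2.54% of those tested). After estradiol 0 of 28 passed (background 0%), with 1 member, Mmp11, and 403 genes (3.02%) at an unadjusted p below 0.05 in edgeR. DESeq2 also called 0 members in both. These counts do not show that the genotypes are alike, since the intervals reach well past 0. For Timp3 the 95% interval of the log2 difference ran from -0.74 to 0.31 in oil and from -0.48 to 0.57 after estradiol, and for Timp1 from -1.0 to 0.76 and from -0.68 to 0.84.

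Timp2 had the narrowest intervals of the inhibitors and was higher in both deleted libraries than in both control libraries within each treatment. Means were 607.5 ± 35.5 CPM in control and 741 ± 9.41 CPM in deleted stroma in oil, and 519 ± 36.8 and 646 ± 24.4 CPM after estradiol (SD, n = 2 libraries each). The log2 differences of 0.29 ± 0.16 SE (95% interval -0.08 to 0.66) and 0.32 ± 0.16 (-0.05 to 0.69) did not pass (edgeR adjusted p = 1 in both). Adamts5 differed by 0.85 ± 0.37 in oil, where the deleted libraries had 14.2 and 31.4 CPM and the control libraries 11.4 and 14 CPM, and by 0.17 without deleted oil library 2. Mmp11 differed by 0.80 ± 0.26 after estradiol, at 39.2 and 30.4 CPM in deleted and 22.6 and 17.4 CPM in control libraries (edgeR adjusted p = 1 for both genes).

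Small upward differences were common among the members in oil. In oil 21 of 28 lay above 0 with a median log2 difference of 0.17, beside -0.01 over all genes, and after estradiol 17 of 28 did, with a median of 0.06 beside -0.01. Both deleted libraries were above both control libraries for 5 members in oil (17.9%, background 12.9%) and for 10 after estradiol (35.7%, background 16%). The opposite held for 0 members in oil (background 11.6%) and 2 after estradiol (7.14%, background 18.2%). The 5 in oil were Adamts3, Adamts5, Mmp3, Mmp23 and Timp2. In oil, all 12 fibroblast markers (median 0.37) and all 9 smooth muscle markers (median 0.49) also lay above 0, and 1 of 14 epithelial markers did (median -0.62). After estradiol 8 of 12 fibroblast markers (median 0.22), 5 of 9 smooth muscle markers (median 0.0035) and 1 of 14 epithelial markers (median -0.38) lay above 0. The part of cell composition in these member values was not tested.

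**Figure D5:**
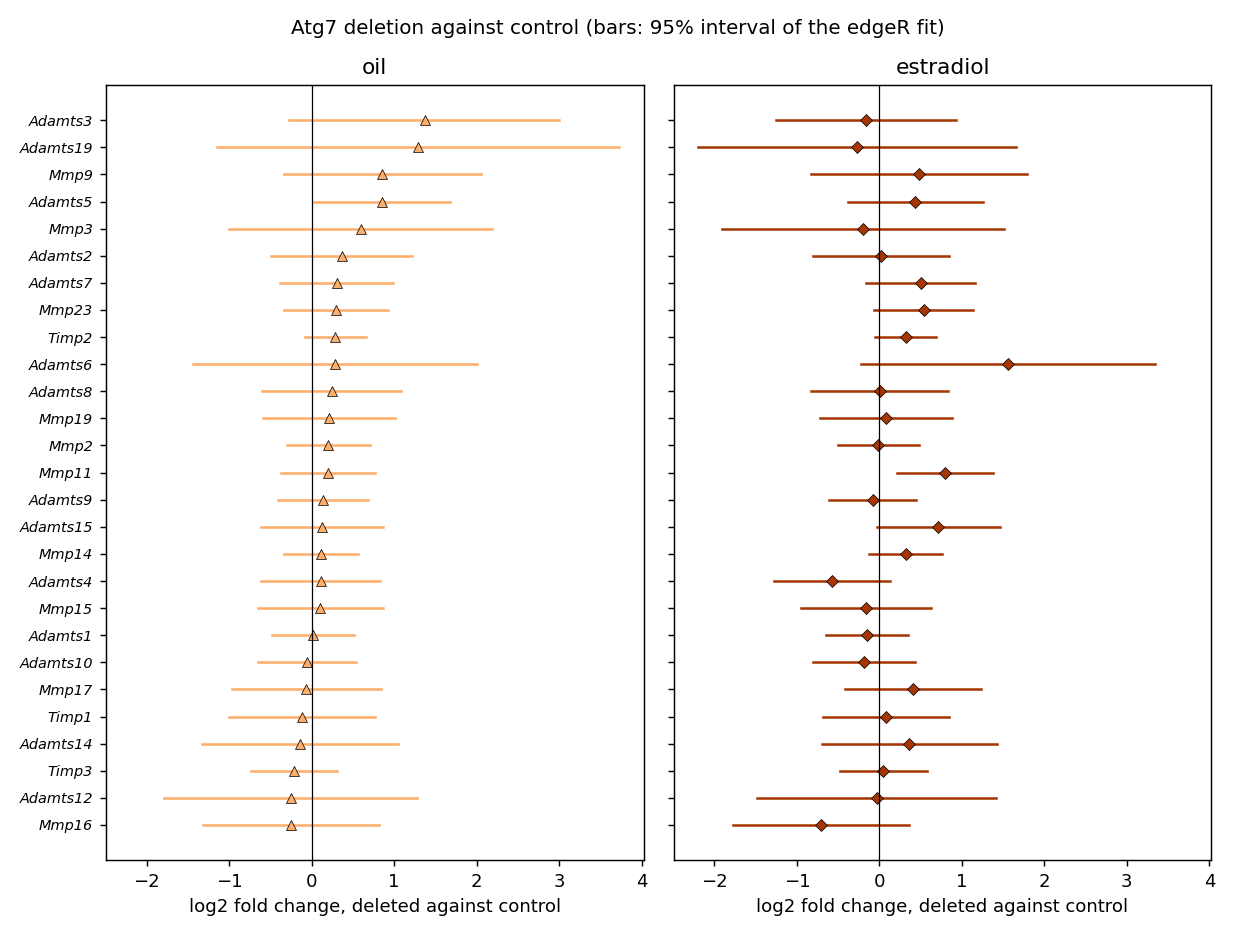
Atg7-deleted against control stroma for 27 of the 28 tested members, in oil on the left and after estradiol on the right, with Adamts17 left out because of its few reads. The x axis is the log2 fold change in CPM, points are the edgeR estimates and bars their 95% intervals. In oil the interval of Adamts5 and after estradiol that of Mmp11 lie above 0, and neither passes after adjustment.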

How the data were processed

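Uterine stromal RNA of 4 groups, 2 libraries each, was measured by 3′ sequencing from 500 ng of total RNA per library. The authors deposited raw read counts per gene symbol, 1 file per library; the unit was read from the values, which are whole numbers. Bowtie2, edgeR and mm10 are named in the submitters' processing notes, without versions or roles; which counter and annotation were used, and whether strand was, is not given in the sources used here. Of 23282 lines, 79 carried 35 repeated symbols, of which only the highest-total line entered, dropping 0.0973% of counts; no member was among them.

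Groups came from the labels. Genes were kept by filterByExpr (minimum count 10, minimum total 15), which left 13347 genes with 99.9% of counts. Scaling was TMM (factors 0.918 to 1.03). The edgeR 4.0.16 quasi-likelihood test (R 4.3.3) was fitted on all 8 libraries with 1 mean per group. It had 4 residual and 5.08 prior degrees of freedom and a biological coefficient of variation of 21.8%. The fit was checked on simulated data in which few genes changed, in the control estradiol libraries only. That check does not cover contrasts in which many genes change. Adjustment was by Benjamini-Hochberg over all genes of the fit, at 0.05, in each of 5 contrasts, and all tests were two-sided. Standard errors and 95% intervals came from the fitted change and its test statistic. CPM are counts on the TMM-scaled library size. Depths of 5458390 to 6951080 counts put 3 reads at 0.432 to 0.55 CPM per library. Promoter windows came from RefSeq (GRCm38.p6), with a window for 32 of the 46 members, and coordinates from GENCODE M21 (mm10).

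Values in every library are given for members with an adjusted p below 0.05 in any contrast and for the inhibitors, and up to 4 genes with the smallest adjusted p are named from each list of related genes. Members and lists were chosen with earlier results of these data known. The labels tie equal replicate numbers to no shared source, and they were not taken as pairs: correlations of same-numbered deviations from the group means were 0.494 between the oil groups and 0.23 between the estradiol groups, and -0.231 to -0.00907 otherwise. Alternatives were DESeq2 1.42.0, library totals as scaling, no filter, summing repeated symbols, a block for the replicate number, fits on the compared groups only, leaving out each library, and, added after seeing the data, leaving out both oil libraries numbered 1.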

Additional observations from a re-analysis of the deposited data

How the results depend on the processing

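Depth limits the scarce members: 18 were too low to test, and Adamts3 and Adamts17 rest on a few reads. With each library left out in turn, the number of members called ran from 3 to 9 for estradiol in control stroma and from 1 to 11 in deleted stroma, and was 0 in every fit for deletion and interaction; calls over all genes moved with it, from 1505 to 4168 and from 740 to 4345. Under the other alternatives it stayed within 1.5 times the reported 8, at 7 to 10 in control and 8 to 12 in deleted stroma. Fits on the compared groups alone called 2305 genes of all in control, beside 3978. With a replicate block, 10 members were called in control and 9 in deleted stroma, the additions including Adamts9 and Mmp14 in control (adjusted p = 0.0386 and 0.0440) and Mmp9 in deleted stroma (0.0293); the labels give no shared source for equal numbers.

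Signs changed for values near 0. In deleted stroma the estradiol change of Adamts1 was -0.0035 with DESeq2, of Mmp19 0.0034 with library totals, and of Adamts5 and Mmp11 -0.26 and -0.17 without both oil libraries numbered 1. With single libraries left out, the estradiol change ranged from -0.36 to 0.65 (control) and -0.29 to 0.22 (deleted) for Mmp19, and in deleted stroma from -0.18 to 0.26 for Adamts1, -0.25 to 0.89 for Adamts5 and -0.16 to 0.40 for Mmp11. The deletion difference in oil ranged from -0.54 to 0.21 for Timp1 and -0.51 to 0.032 for Timp3, and after estradiol from -0.16 to 0.34 and -0.080 to 0.16. The interaction ranged from -0.051 to 0.42 for Mmp14 and -0.86 to 0.16 for Mmp15. The cause of these changes was not tested. Outside the single-library fits, 343 other values counted as unchanged. These were named genes that kept direction and side of the threshold, and summed member levels that stayed within the SD of their group. A further 21 values of named genes passed only under the alternative and 5 only as reported.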
